A study of Mus musculus with 2 samples.

Results

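Plasma cells were examined in single-cell transcriptomes of mouse tumours, where 58 of 17746 retained barcodes met the rule that defines them here. A retained barcode showed 200 or more genes and no more than 20% mitochondrial UMIs, a UMI being the tag that marks 1 captured transcript. A plasma cell had at least 5 UMIs of Jchain and at least 2 of Mzb1, no UMI of the T cell genes Cd3d, Cd3e and Cd3g, and under 5 UMIs of the macrophage genes C1qa, C1qb and C1qc together. There were 47 such cells in the AIE COF library and 11 in the PBS library. These genes chose the cells, so their levels describe the choice and are no finding.

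The tumours were grown under the skin from 4T1, a mouse mammary carcinoma line. One library came from mice treated by AIE COF-mediated phototherapy, COF standing for covalent organic framework, and the other from mice given PBS; both groups carried 4T1 tumours and were sampled on day 7 after phototherapy. The strain label reads C57BL/c and could not be resolved, and the sources used here do not say how many mice were pooled per suspension. There was 1 library per group, so no difference below has a replicate check or a test, and the 95% intervals cover counting error only. Cells of 1 library are not replicates of its condition.

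Plasma cells are the end stage of the B cell lineage. They stop presenting antigen and dividing, switch on the transcription factors Blimp-1 (Prdm1), IRF4 and XBP1, and enlarge the endoplasmic reticulum (ER), through which antibody chains are threaded, folded, glycosylated and exported. Class switching joins the same variable region to another heavy chain constant gene, so that IgM becomes IgG, IgA or IgE. Jchain encodes the joining chain of polymeric antibody, Mzb1 an ER co-chaperone of antibody-secreting cells, and Slpi a secreted inhibitor of serine proteases.

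Sequencing gave 115576457 UMIs over 10002 barcodes for AIE COF and 145045294 UMIs over 8962 barcodes for PBS. After filtering, 9313 AIE COF and 8433 PBS cells remained, with medians of 4074 UMIs and 6756 UMIs. The libraries shared 39 barcode sequences, and no plasma cell carried one of them. Plasma cells had 724 to 10297 UMIs with a median of 4430 in the AIE COF library and 1934 to 11108 UMIs with a median of 4893 in the PBS library. Mitochondrial transcripts took a median of 2.89% of their UMIs (1.47 to 10.9%) in the AIE COF library and 2.32% (0.517 to 5.69%) in the PBS library.

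Plasma cells made up 0.505% of retained AIE COF cells (47 of 9313, exact Clopper-Pearson 95% interval 0.371 to 0.671%) and 0.130% of retained PBS cells (11 of 8433, 0.0651 to 0.233%). The ratio of these shares was 3.87 (1.98 to 8.27). B cells, taken as the remaining cells with at least 2 UMIs of Cd79a and Cd79b and without the T cell and macrophage genes, were also more frequent, at 8.31% of AIE COF cells (774 cells) and 3.60% of PBS cells (304 cells). Among plasma and B cells together, plasma cells were 5.72% (47 of 821, 4.24 to 7.54%) in the AIE COF library and 3.49% (11 of 315, 1.76 to 6.16%) in the PBS library. That ratio was 1.64 with an interval of 0.838 to 3.51, which includes 1. Among cells with a UMI of the leukocyte gene Ptprc the shares were 0.450% (26 of 5782) in the AIE COF library and 0.226% (8 of 3537) in the PBS library, a ratio of 1.99 (0.874 to 5.08). Among plasma, B and T cells together, T cells being those with at least 2 UMIs of the Cd3 genes and none of the Cd79 genes, the shares were 2.43% (47 of 1932) in the AIE COF library and 1.14% (11 of 964) in the PBS library, a ratio of 2.13 (1.09 to 4.56). Over all 58 plasma cells, the counting interval of the ratio thus lay above 1 among all retained cells and among the lymphocytes together. It included 1 among plasma and B cells and among Ptprc-positive cells. With at least 20 Jchain UMIs required, 35 AIE COF and 9 PBS plasma cells remained. The ratios among lymphocytes and among Ptprc-positive cells were not computed for those cells alone.

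Cells near the thresholds were counted. No retained cell within the limits on T cell and macrophage genes had 3 or 4 Jchain UMIs together with 2 or more of Mzb1, in either library. With 5 or more Jchain UMIs but under 2 of Mzb1 there were 8 AIE COF cells, whose Jchain counts were 5 to 57, and 1 PBS cell with 6. The T cell or macrophage genes removed 5 AIE COF cells, with 23 to 357 Jchain UMIs and 4074 to 19949 UMIs in all, and 1 PBS cell with 194 Jchain UMIs and 12042 UMIs. Just inside the rule were 12 AIE COF and 2 PBS plasma cells with 5 to 19 Jchain UMIs, which are called Jchain-low below, and 10 AIE COF and 1 PBS plasma cells with 2 or 3 Mzb1 UMIs.

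Ighg1 and Slpi, which the rule did not use, were found mostly in these cells. Of all UMIs in retained cells, the plasma cells held 82.8% of Ighg1 UMIs in the AIE COF library and 89.6% in the PBS library, and 89.3% of Slpi UMIs in the AIE COF library and 70.1% in the PBS library. They held 85.7% of Jchain UMIs in the AIE COF library and 83.3% in the PBS library, and 61.0% of Mzb1 UMIs in the AIE COF library and 58.3% in the PBS library, shares that follow from the rule. Jchain stood at 32953 CPM (UMIs per 1000000) in AIE COF and 31788 CPM in PBS plasma cells, against 4.07 CPM in AIE COF and 0.484 CPM in PBS T cells, which should lack it. Ighg1 stood at 35697 CPM in AIE COF and 37192 CPM in PBS plasma cells, against 9.05 CPM in AIE COF and 2.18 CPM in PBS T cells.

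The 20 genes with the highest ratio of plasma cells over all other retained cells were, in order, Ighe, Jchain, Slpi, Ighg1, Ighg2b, 2010309G21Rik, Ighg2c, Derl3, Mzb1, Igkv1-117, Iglv3, Igkv12-46, Eaf2, Cacna1e, Gm30211, Pou2af1, Lax1, Iglc2, Reln and Cd24a. Derl3 encodes a channel component of ER-associated degradation, Eaf2 an elongation factor partner and Pou2af1 the B cell coactivator OCA-B. The order is a description with no test: Jchain and Mzb1 chose the cells, and the genes were ranked on the cells so chosen.

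The label was checked against markers outside the rule. Xbp1 had a UMI in 41 of 47 AIE COF and 10 of 11 PBS plasma cells. After every cell was thinned to 1000 UMIs, which left out 3 AIE COF plasma cells, Xbp1 was seen in 33 of 44 AIE COF plasma cells and 5 of 11 PBS plasma cells, against 2.76% of AIE COF T cells, whose median depth before thinning was 1965 UMIs. Other plasma cell genes were sparse: unthinned, Prdm1 was seen in 10 AIE COF and 4 PBS cells, Irf4 in 16 AIE COF and 4 PBS cells, and Sdc1, which encodes the surface marker CD138, in 10 AIE COF and 6 PBS cells. Tnfrsf17, the gene of the survival receptor BCMA, had a UMI in 4 AIE COF plasma cells and in 0 of 11 PBS plasma cells. Of B cell genes, Ms4a1 had 0 UMIs in the plasma cells of both libraries and Pax5 was seen in 2 AIE COF cells and 1 PBS cell, while Cd79b had a UMI in 57.4% of AIE COF and 72.7% of PBS plasma cells. The 21 B cell genes summed to 2022 CPM in AIE COF and 1763 CPM in PBS plasma cells, against 5628 CPM in AIE COF and 5676 CPM in PBS B cells, which Cd79a and Cd79b chose, and 459 CPM in AIE COF and 269 CPM in PBS T cells. The 16 T cell markers summed to 10 UMIs over AIE COF and 4 over PBS plasma cells, and erythroid genes to 0 in both.

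The Jchain-low cells met the label less well. Secretory genes, the 5 lists of translocation, folding, glycosylation, degradation and ER export genes summed, made up 1.35 to 2.85% (median 2.23%) of the UMIs outside immunoglobulin genes and Jchain in the 12 Jchain-low AIE COF cells, and 1.47% and 2.35% in the 2 Jchain-low PBS cells. Plasma cells with 20 or more Jchain UMIs had 1.93 to 17.0% (median 8.85%) in the AIE COF library (35 cells) and 5.81 to 11.7% (median 8.83%) in the PBS library (9 cells). The 95th percentile of other retained cells was 2.37% in the AIE COF library and 2.48% in the PBS library. Above it lay 33 of 35 AIE COF cells and 9 of 9 PBS cells with 20 or more Jchain UMIs, but 4 of 12 AIE COF and 0 of 2 PBS Jchain-low cells. The Jchain-low AIE COF cells were also shallow, with a median of 1506.5 UMIs, had 4.77 to 10.9% mitochondrial UMIs, and lacked a Ptprc UMI in 9 of 12. Fibroblast markers stood at 26.9 UMIs per 10000 in them and at 3.74 in the AIE COF plasma cells with more Jchain. The level was 20.8 in AIE COF B cells, 15.2 in AIE COF T cells and 29.6 in all retained AIE COF cells outside the rule. In the 2 Jchain-low PBS cells it was 1.95. The B cell genes stood at 31.5 UMIs per 10000 in Jchain-low AIE COF cells and at 18.8 in those with more Jchain. In PBS cells the levels were 26.3 and 15.9, and AIE COF B cells had 56.3. In each library 1 Jchain-low cell held most of them, 42 of 68 UMIs in AIE COF and 24 of 27 in PBS. Both cells had a Pax5 UMI. Whether the Jchain-low barcodes hold plasma cells, other cells or a mixture was not tested. The main values below include them, and values over the cells with 20 or more Jchain UMIs are given beside results that these barcodes move.

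**Figure D1:**
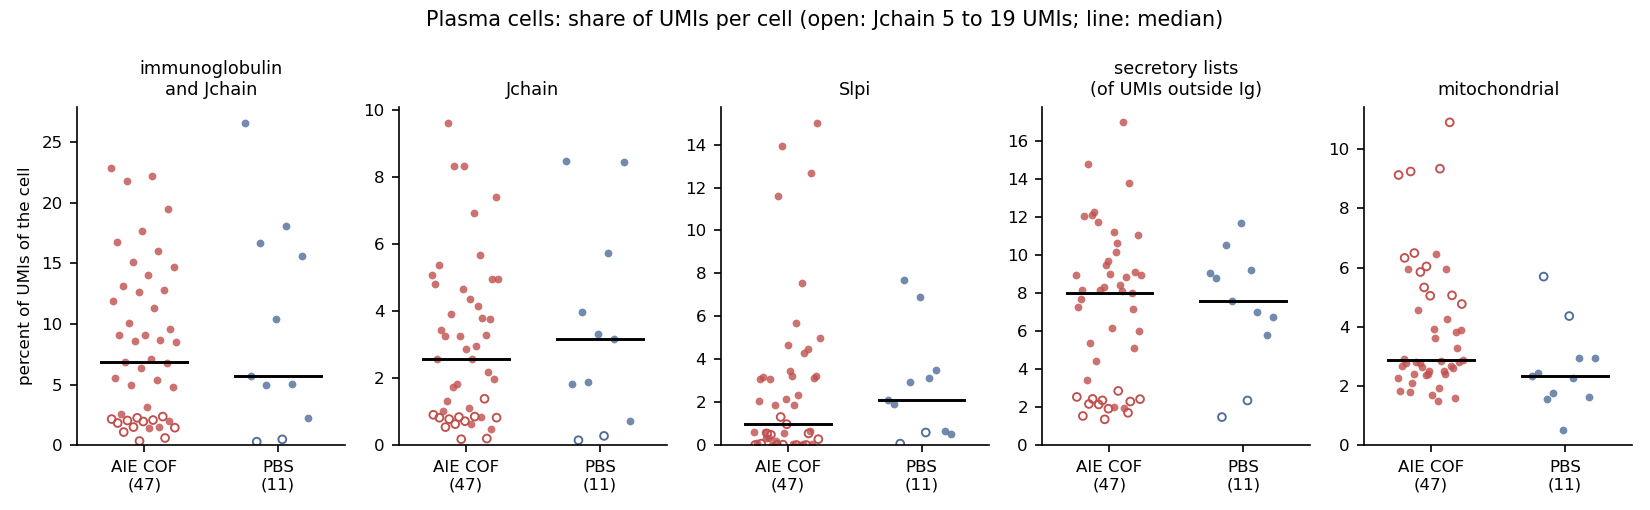
Share of each cell's UMIs (percent, vertical axes) taken by immunoglobulin genes with Jchain, by Jchain, by Slpi, by mitochondrial genes, and, of the UMIs outside immunoglobulin genes and Jchain, by secretory genes, in 47 AIE COF and 11 PBS plasma cells. Each point is a cell, open points are cells with 5 to 19 Jchain UMIs and lines are medians; the open points lie low for immunoglobulin and secretory genes and high for mitochondrial genes in the AIE COF library.

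Immunoglobulin genes and Jchain took 0.329 to 22.9% (median 6.84%) of the UMIs of AIE COF plasma cells and 0.273 to 26.6% (median 5.67%) of those of PBS plasma cells. Summed over cells they took 9.19% in the AIE COF library and 8.89% in the PBS library. The antibody load thus varied widely among cells of 1 library and the ranges of the libraries overlapped. Over the cells with 20 or more Jchain UMIs the medians were 9.09% in the AIE COF library and 10.39% in the PBS library, so the order of the medians turned round. The light chain constant genes, described below, were barely counted, so these shares leave out most light chain RNA. Jchain alone took a median of 2.57% in AIE COF and 3.17% in PBS plasma cells.

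Slpi varied widely from cell to cell. It had 0 to 850 UMIs per cell (median 27) in the AIE COF library and 5 to 376 (median 112) in the PBS library. No Slpi UMI was found in 6 AIE COF plasma cells, 2 of which had 162 and 187 Jchain UMIs, whereas each of the 11 PBS plasma cells had some. The medians were 0.971% of UMIs in AIE COF cells and 2.10% in PBS cells, while the summed UMIs gave 35370 per 1000000 UMIs outside immunoglobulin genes and Jchain in the AIE COF library (6275 UMIs) and 26612 in the PBS library (1485 UMIs). The median and the sum therefore ran in opposite directions, and 30 of 47 AIE COF cells lay below the PBS median while 4 lay above the highest PBS cell. The medians depended on the Jchain-low cells, whose median in the AIE COF library was 2.5 Slpi UMIs. With at least 20 Jchain UMIs required, the medians were 122 UMIs (2.34% of UMIs) in AIE COF and 133 UMIs (2.93%) in PBS cells, with 18 of 35 AIE COF cells below the PBS median, and the summed ratio was 1.24 (1.17 to 1.31).

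**Figure D2:**
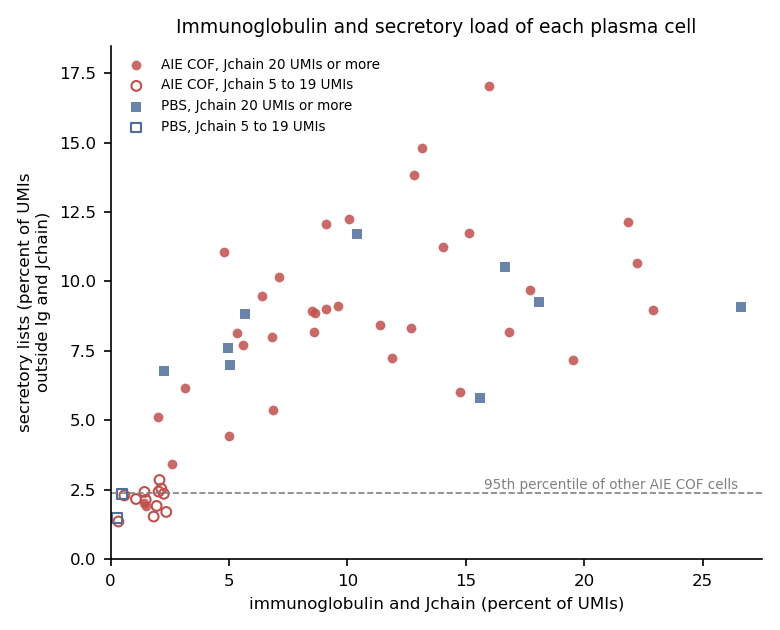
Immunoglobulin and Jchain share of all UMIs (percent, horizontal axis) against the secretory gene share of the remaining UMIs (percent, vertical axis), 1 point per plasma cell, AIE COF and PBS cells in different colours. The dashed line marks 2.37%, the 95th percentile of other retained AIE COF cells; cells with more antibody RNA lie higher.

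The antibody share and the secretory share, from which Mzb1 was left out, ran together over the plasma cells. Over all 58 cells, Spearman's rho between the immunoglobulin and Jchain share and the secretory share was 0.78, and over the 44 cells with 20 or more Jchain UMIs it was 0.55. With Jchain left out of the antibody share it was 0.77 over all 58 cells and 0.52 over the 44. Both measures come from the same cells and libraries, and the cells were chosen on Jchain, so this is a description.

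Almost every plasma cell expressed an IgG gene. Each cell was assigned the heavy chain constant gene that held at least 50% of its heavy chain UMIs, and all 58 could be assigned, with 7 to 869 heavy chain UMIs (median 172) in AIE COF and 5 to 801 (median 164) in PBS cells. Ighg1, the IgG1 gene, led 36 of 47 AIE COF cells (76.6%, exact interval 62.0 to 87.7%) and 9 of 11 PBS cells (81.8%, 48.2 to 97.7%). Ighg2b led 7 AIE COF cells (14.9%, 6.20 to 28.3%) and 1 PBS cell (9.09%), and Ighg2c led 2 AIE COF cells and 1 PBS cell. Ighm, the IgM gene, led 2 AIE COF cells and 0 of 11 PBS cells; a count of 0 here allows a share of up to 28.5%. No cell was led by Igha, Ighd, Ighe or Ighg3. The counting intervals of the isotype shares overlapped, and they are wide at 11 PBS cells. All 12 AIE COF and both PBS Jchain-low cells were led by Ighg1, on 7 to 26 heavy chain UMIs in AIE COF and 5 in PBS cells. Over the cells with 20 or more Jchain UMIs, Ighg1 led 24 of 35 AIE COF cells (68.6%) and 7 of 9 PBS cells (77.8%).

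Within a cell the isotype was usually clear. At least 90% of heavy chain UMIs came from 1 gene in 42 of 47 AIE COF and 10 of 11 PBS cells. Switched genes led 45 of 47 AIE COF and 11 of 11 PBS cells. As a background, T cells with 5 or more UMIs of switched heavy chain genes numbered 0 in both libraries, and B cells with as many numbered 1 in the AIE COF library and 0 in the PBS library. Of all retained cells outside the rule, 15 AIE COF and 2 PBS cells had as many.

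**Figure D3:**
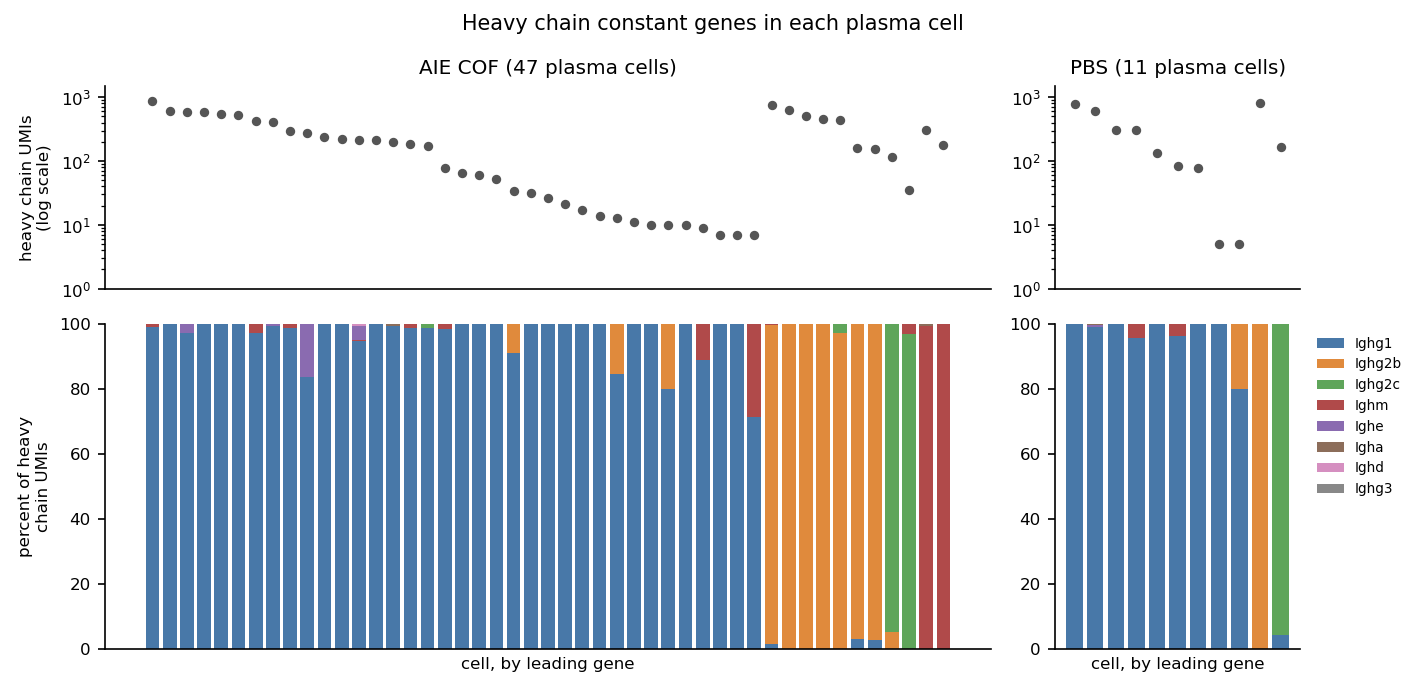
Heavy chain constant gene UMIs of every plasma cell (upper panels, log axis) and the percent of them from each constant gene (lower panels, stacked bars, 1 bar per cell), for 47 AIE COF cells on the left and 11 PBS cells on the right, ordered by leading gene. Ighg1 fills 36 AIE COF and 9 PBS bars, and Ighm leads 2 AIE COF bars and no PBS bar.

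By transcript rather than by cell, Ighg2b weighed more. Of 10808 heavy chain UMIs in AIE COF plasma cells 64.5% were Ighg1 (6974) and 28.5% Ighg2b (3084), and of 3257 in PBS plasma cells 69.9% were Ighg1 (2278) and 24.6% Ighg2b (802). The 7 AIE COF cells led by Ighg2b carried 150 to 746 Ighg2b UMIs each, and the PBS cell carried 801. Each of them had at least 50 Jchain UMIs, so none was a Jchain-low cell. The IgG constant genes are closely related in sequence, and the sources used here do not say how reads that match several of them were counted.

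The 2 cells led by Ighm, both from the AIE COF library, had 311 of 312 and 178 of 178 heavy chain UMIs from Ighm. They carried 398 and 97 Jchain UMIs, 33 and 44 Mzb1 UMIs, and 9 and 28 Slpi UMIs. The Slpi median was 27 over all AIE COF plasma cells and 122 over those with 20 or more Jchain UMIs. At most 1 heavy chain UMI of either cell came from another gene. Of all Ighm UMIs in retained cells, plasma cells held 10.5% in the AIE COF library and 0.702% in the PBS library, and B cells carried 566 CPM in the AIE COF and 646 CPM in the PBS library.

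Ighe, the IgE gene, led no cell but appeared beside Ighg1 in 5 of them. In the AIE COF library 4 plasma cells carried 45, 16, 9 and 2 Ighe UMIs beside 235, 577, 204 and 414 of Ighg1, and in the PBS library 1 cell carried 3 beside 596. These were all 72 Ighe UMIs of retained AIE COF cells, and 3 of the 8 in retained PBS cells. The values were singled out after they were seen, and whether such a cell is 1 cell or a pair of cells was not tested.

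Light chains could not be assigned as kappa or lambda. Igkc, the kappa constant gene, and the lambda constant genes Iglc1 and Iglc3 are listed at 0 in every cell of both libraries, plasma cells and B cells alike. In the GENCODE annotation of GRCm38, Igkc at chr6:70726435-70726966 lies inside the long noncoding gene Gm30211 on the same strand, and Iglc1 and Iglc3 lie inside 2010309G21Rik on the opposite strand of chromosome 16. Gm30211 had 64 UMIs in AIE COF and 31 in PBS plasma cells, and 2010309G21Rik had 1023 in AIE COF and 221 in PBS plasma cells, with up to 201 in 1 AIE COF cell and 98 in 1 PBS cell. Iglc2, the lambda gene that was counted, had 244 UMIs in AIE COF and 116 in PBS plasma cells. A level of 0 for Igkc thus says nothing of whether kappa chains were made.

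Variable genes gave a partial view of how alike the cells were. A kappa variable gene with at least 3 UMIs and at least 50% of the cell's kappa variable UMIs was found in 26 of 47 AIE COF plasma cells, which used 16 different genes, and in 8 of 11 PBS plasma cells, which used 8. Igkv1-117, Igkv10-96 and Igkv12-46 led 4 AIE COF cells each, and Igkv12-46 also led 1 PBS cell. The 4 cells with Igkv1-117 had 3 different isotypes, Ighg1, Ighg2b and Ighg2c. A heavy variable gene could be assigned in 10 AIE COF cells, with 9 different genes, and in 4 PBS cells, with 4. Ighv8-12 with Igkv12-46 was found in 1 AIE COF cell led by Ighg2b and in 1 PBS cell led by Ighg1. A shared variable gene does not show a shared clone, and no gene was used by most cells of a library.

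To set AIE COF against PBS plasma cells, UMIs were summed per library and scaled to the UMIs outside immunoglobulin genes and Jchain, which numbered 177409 in the AIE COF and 55803 in the PBS library. Of 689 genes with at least 50 UMIs over both, 103 (14.9%) were at least 1.5-fold higher in AIE COF plasma cells and 94 (13.6%) at least 1.5-fold lower, and the median log2 ratio of all 689 was -0.05. The interval lay above 1 for 60 genes and below 1 for 63. Quality measures moved with these ratios: ribosomal protein genes took a median of 15.96% of UMIs in AIE COF and 19.96% in PBS plasma cells, and the nuclear RNA Malat1 4.28% in AIE COF and 3.10% in PBS plasma cells. Malat1 was 1.55-fold higher in AIE COF plasma cells by sum, against a log2 ratio of -0.19 in B cells and 0.05 in T cells. Their part in the gene ratios was not tested.

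By summed UMIs, some folding and stress genes of the ER were higher in AIE COF plasma cells, while most secretory genes differed by less than 1.5-fold. Of 77 measured genes in the secretory lists, 14 were at least 1.5-fold higher and 3 at least 1.5-fold lower, and their median log2 ratio was 0.16. The 14 make 18.2% of the 77, near the 14.9% of all genes, and the 3 make 3.90%, against 13.6%. Their summed UMIs gave a ratio of 1.15 (1.11 to 1.19).

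Of 20 measured ER chaperone and disulphide-forming genes, 6 were at least 1.5-fold higher and 0 lower, against 14.9% and 13.6% of all 689 genes. The list's median log2 ratio was 0.32, and 0.076 with every cell weighted equally. Per cell, the list summed to a median of 292 per 10000 UMIs outside immunoglobulin genes and Jchain in AIE COF cells and 295 in PBS cells. Hspa5, which encodes the chaperone BiP, had 732 UMIs in AIE COF and 100 in PBS plasma cells, a ratio of 2.30 (1.87 to 2.87). Creld2, an ER stress-induced gene, had 177 UMIs in AIE COF and 23 in PBS plasma cells (ratio 2.42, 1.56 to 3.92). Dnajb9, a BiP cofactor, had 87 UMIs in AIE COF and 10 in PBS plasma cells (ratio 2.74, 1.42 to 5.91). The ratio of Dnajb9 was 1.27 (0.987 to 1.66) in B cells and 1.70 (1.44 to 2.01) in T cells. Hsp90b1, the chaperone GRP94 and the most abundant gene of the list, had 2232 UMIs in AIE COF and 515 in PBS plasma cells (ratio 1.36, 1.238 to 1.503). The remaining genes past 1.5-fold were Canx, Dnajc3 and Txndc5, while Manf stood at 1.198 (0.978 to 1.48), Calr at 0.958 (0.719 to 1.29) and Pdia6 at 0.697 (0.516 to 0.949). Mzb1, a gene of the rule, is also in the list, at a ratio of 1.05. Creld2, Dnajb9, Canx, Dnajc3, Txndc5 and Pdia6 were named after their values were seen.

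The Hspa5 difference lay in part of the cells. Per 10000 UMIs outside immunoglobulin genes and Jchain, Hspa5 stood at 0 to 288 with a median of 12.3 in AIE COF plasma cells, and at 0 to 69.2 with a median of 16.8 in PBS plasma cells. The groups overlapped: 9 of 47 AIE COF cells lay above the highest PBS cell, and 28 of 47 lay below the PBS median. These values include the 12 Jchain-low AIE COF cells, which held 0 to 2 Hspa5 UMIs each. Unscaled, the median over all cells was 4 Hspa5 UMIs in AIE COF and 7 in PBS cells. With at least 20 Jchain UMIs required, it was 7 in AIE COF (35 cells) and 9 in PBS (9 cells). Those cells held 724 of the AIE COF and 95 of the PBS Hspa5 UMIs. The 5 AIE COF cells highest on the scale per 10000 UMIs held between 14 and 142 Hspa5 UMIs, and all 5 were led by Ighg1. Leaving out the cell with the most Hspa5 UMIs in each library gave a log2 ratio of 0.97, against 1.203 with them. That setting was chosen after seeing the data. Giving every cell equal weight gave 0.80. In B cells the log2 ratio of Hspa5 was -0.14 and in T cells -0.02.

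Hsp90b1 and Creld2 depended on few cells as well. Without the 2 AIE COF cells and 1 PBS cell that had a Pax5 UMI, which held 259 Hsp90b1 UMIs in the AIE COF library and 3 in the PBS library, the log2 ratio of Hsp90b1 was 0.18, against 0.45 with them. Without the cell with the most Hspa5 UMIs in each library, the log2 ratio of Creld2 was 0.77, against 1.28 with them. Both of these settings were chosen after seeing the data.

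ER-associated degradation and unfolded protein response genes showed 4 of 15 measured genes higher and 0 lower, against 14.9% and 13.6% of all genes, with a median log2 ratio of 0.21. That median was -0.12 with every cell weighted equally and -0.025 without the cells that had a Pax5 UMI. Edem1, which passes misfolded glycoproteins on to degradation, had 259 UMIs in AIE COF and 34 in PBS plasma cells (ratio 2.40, 1.67 to 3.53). The other 3 genes, named after their values were seen, were Sel1l, a subunit of the degradation ligase complex (71 UMIs in AIE COF and 8 in PBS plasma cells, ratio 2.79), Edem3 (77 UMIs in AIE COF and 11 in PBS plasma cells, ratio 2.20) and Herpud1 (86 UMIs in AIE COF and 15 in PBS plasma cells, ratio 1.80). Xbp1, the transcription factor that drives the secretory programme, stood at 1.23 (0.915 to 1.67), Selenok at 1.19 (0.948 to 1.51), Atf6 at 0.936 (0.652 to 1.37) and Selenos at 0.775 (0.539 to 1.13). Of AIE COF cells, 8 lay above the highest PBS cell for Edem1.

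Translocation and glycosylation genes, summed, lay within counting error of a ratio of 1. Of 19 measured translocon and signal peptidase genes, which carry nascent chains into the ER and cleave their leaders, 3 were higher and 0 lower. Of all genes 14.9% were higher, a share near that of the 3, and 13.6% were lower. The list's median log2 ratio was 0.16 and its summed ratio 1.004 (0.944 to 1.07). The median was -0.18 with every cell weighted equally, -0.028 with at least 20 Jchain UMIs required and -0.015 without the cells that had a Pax5 UMI. Sec61b, a subunit of the Sec61 channel, had 750 UMIs in AIE COF and 226 in PBS plasma cells (ratio 1.04, 0.898 to 1.22), and Ssr4 had 483 in AIE COF and 136 in PBS plasma cells (ratio 1.12, 0.922 to 1.36). Of 13 measured N-glycosylation genes, which attach and trim sugars, none passed 1.5-fold in either direction, against 14.9% higher and 13.6% lower of all genes. Their median log2 ratio was -0.02 and their summed ratio 0.990 (0.897 to 1.09). Of 12 measured ER to Golgi transport genes 1 was higher and 3 were lower, against 14.9% and 13.6% of all genes. Their median log2 ratio was -0.17, which was 0.22 with no minimum of UMIs per gene. Tmed10, a cargo receptor of that route, stood at 0.860 (0.662 to 1.13) and Lman1 at 0.991 (0.737 to 1.35).

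**Figure D4:**
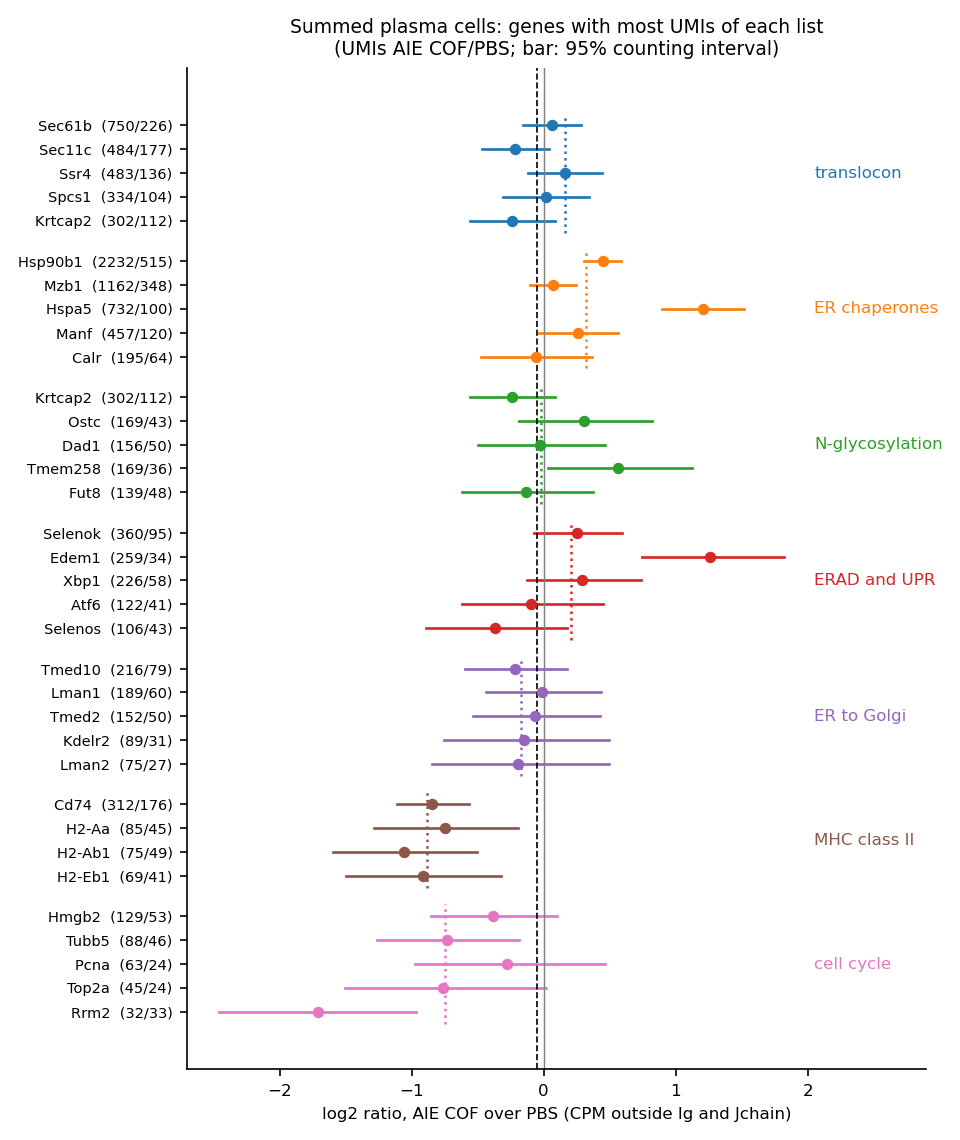
Ratio of AIE COF over PBS plasma cells (horizontal log2 axis) for the genes with the most UMIs in each of 7 lists, with 95% counting intervals as bars. Dotted lines mark each list's median and the dashed line the median of all 689 genes, -0.05; Hspa5 and Edem1 lie to the right and the genes of antigen presentation and Rrm2 to the left.

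Promoters are shown for the 8 measured secretory genes whose promoter holds the ER stress response element, the sequence through which ATF6 and NF-Y are known to act on chaperone genes. The motif searched was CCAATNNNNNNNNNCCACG on both strands, in the 250 bases before to 50 after each start site from RefSeq on GRCm38.p6. It was found in 39 of 32851 promoters (0.119%), and in 10 of the 112 secretory genes that have a promoter in that table, 8 of them among 22 ER chaperone genes. It was found in none of the translocon, N-glycosylation or ER to Golgi transport promoters. Each window is 100 bases long on the gene's strand, 5′ to 3′, with the motif, or its reverse complement, in capitals.
Hspa5: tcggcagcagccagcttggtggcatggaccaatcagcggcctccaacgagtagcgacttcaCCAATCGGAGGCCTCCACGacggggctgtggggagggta
Creld2: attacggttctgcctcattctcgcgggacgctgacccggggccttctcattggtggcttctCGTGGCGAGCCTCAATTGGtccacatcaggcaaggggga
Hsp90b1: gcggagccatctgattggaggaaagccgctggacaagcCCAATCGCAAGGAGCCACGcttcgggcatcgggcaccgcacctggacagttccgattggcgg
Canx: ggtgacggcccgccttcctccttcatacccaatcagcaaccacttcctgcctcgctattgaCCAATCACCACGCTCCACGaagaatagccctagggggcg
Dnajc3: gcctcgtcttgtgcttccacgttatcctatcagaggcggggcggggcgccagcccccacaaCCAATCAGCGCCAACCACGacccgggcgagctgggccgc
Calr: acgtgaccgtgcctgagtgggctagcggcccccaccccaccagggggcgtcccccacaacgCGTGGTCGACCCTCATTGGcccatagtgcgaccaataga
Derl3: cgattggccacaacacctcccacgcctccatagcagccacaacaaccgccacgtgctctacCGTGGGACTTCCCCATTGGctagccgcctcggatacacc
Pdia6: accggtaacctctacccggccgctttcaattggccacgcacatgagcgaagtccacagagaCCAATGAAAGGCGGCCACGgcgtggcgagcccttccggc
The windows lie at chr2:34771964-34772063 (+ strand) for Hspa5, chr15:88819459-88819558 (+ strand) for Creld2, chr10:86705595-86705694 (- strand) for Hsp90b1, chr11:50325780-50325879 (- strand) for Canx, chr14:118937766-118937865 (+ strand) for Dnajc3, chr8:84847055-84847154 (- strand) for Calr, chr10:75893181-75893280 (+ strand) for Derl3 and chr12:17266430-17266529 (+ strand) for Pdia6. In Hspa5 the motif spans bases 65 to 47 before the start site. The ratios of these genes ran from 2.42 for Creld2, 2.30 for Hspa5, 1.56 for Canx, 1.52 for Dnajc3 and 1.36 for Hsp90b1, through 0.977 for Derl3 and 0.958 for Calr, to 0.697 for Pdia6. Genes with the motif thus lay on both sides of 1, and a match is a description of the sequence, not a site or a cause.

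Of 11 measured plasma cell identity genes 4 were higher and 0 lower, against 14.9% and 13.6% of all genes, with a median log2 ratio of 0.40. They were Edem1, given above, Slamf7, Trp53inp1 and Ly6c2. Trp53inp1, a stress-induced gene, had 146 UMIs in AIE COF and 22 in PBS plasma cells (ratio 2.09, 1.33 to 3.43), and Ly6c2, a surface antigen also found on monocytes, had 136 in AIE COF and 20 in PBS plasma cells (ratio 2.14, 1.33 to 3.61). Eaf2 stood at 0.882 (0.693 to 1.13). Other macrophage and monocyte markers were few: the list summed to 196 UMIs in AIE COF and 30 in PBS plasma cells, Ly6c2 included, and Adgre1, Fcgr1 and Trem2 had none.

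By summed UMIs, MHC class II genes of antigen presentation were lower in AIE COF plasma cells. For H2-Aa, H2-Ab1 and H2-Eb1 the amount rested in part on 1 PBS cell. All 4 measured MHC class II genes were at least 1.5-fold lower, against 13.6% of all genes, with a median log2 ratio of -0.88 and a summed ratio of 0.534 (0.466 to 0.614). Cd74, the invariant chain, had 312 UMIs in AIE COF and 176 in PBS plasma cells (ratio 0.558, 0.462 to 0.675). Per 10000 UMIs outside immunoglobulin genes and Jchain it stood at 0 to 92.4 with a median of 12.99 in AIE COF and at 3.91 to 75.0 with a median of 27.1 in PBS plasma cells. The ranges overlapped almost fully, with 40 of 47 AIE COF cells below the PBS median. H2-Aa stood at 0.594 (0.409 to 0.873), H2-Ab1 at 0.481 (0.331 to 0.705) and H2-Eb1 at 0.529 (0.355 to 0.799). Of the PBS UMIs, 1 Jchain-low cell held 48.9% for H2-Aa, 38.8% for H2-Ab1 and 34.1% for H2-Eb1. With at least 20 Jchain UMIs required, the list's median log2 ratio was -0.67 and 3 of the 4 genes stayed at least 1.5-fold lower. Their ratios were then 0.548 (0.447 to 0.674) for Cd74, 0.642 (0.411 to 1.025) for H2-Ab1 and 0.6177 (0.381 to 1.03) for H2-Eb1, against 0.838 (0.514 to 1.41) for H2-Aa. Only the interval of Cd74 then lay below 1. Plasma cells carried far less of these genes than B cells, at 2887 CPM in AIE COF and 5421 CPM in PBS plasma cells, against 11454 CPM in AIE COF and 13080 CPM in PBS B cells.

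Of 6 measured cell cycle genes 4 were at least 1.5-fold lower and 0 higher, against 13.6% and 14.9% of all genes. The list's median log2 ratio was -0.75, and -0.43 with every cell weighted equally. It had 596 UMIs in AIE COF and 304 in PBS plasma cells. Single cells held many of them, 127 and 108 in the highest AIE COF cells and 112 and 66 in the highest PBS cells. Rrm2, a subunit of ribonucleotide reductase, had 32 UMIs in AIE COF and 33 in PBS plasma cells (ratio 0.305, 0.182 to 0.512), and 57.6% of the PBS UMIs came from 1 cell. With every cell weighted equally its log2 ratio was -0.75, against -1.71 by sum. Top2a, a topoisomerase of dividing cells, had 45 UMIs in AIE COF and 24 in PBS plasma cells (ratio 0.590, 0.352 to 1.01), and Tubb5 stood at 0.602 (0.417 to 0.879). The Rrm2 difference thus rested largely on 1 PBS cell.

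Among genes outside the lists, taken by the size of their ratio with no single dominant cell, the lowest in AIE COF plasma cells was Cd52, a small surface antigen of lymphocytes. It had 278 UMIs in AIE COF and 257 in PBS plasma cells, a ratio of 0.340 (0.286 to 0.405). Per 10000 UMIs outside immunoglobulin genes and Jchain it stood at 0 to 79.9 with a median of 9.15 in AIE COF and at 5.93 to 260 with a median of 28.7 in PBS plasma cells. Of 47 AIE COF cells, 43 lay below the PBS median and 0 above the highest PBS cell. Its log2 ratio was -1.56 in plasma cells, -0.12 in B cells and -0.34 in T cells, and -1.57 with at least 20 Jchain UMIs required. The end of Cd52 is overlapped by Crybg2 on the opposite strand, and the sources used here do not say whether counting used strand. The next lowest, at log2 ratios of -1.10 to -0.89, were Ndufs4, Gdi2, Fam214a, Snrpg, Reep5, Cyba, Lims1, Tma7 and Lsm4.

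**Figure D5:**
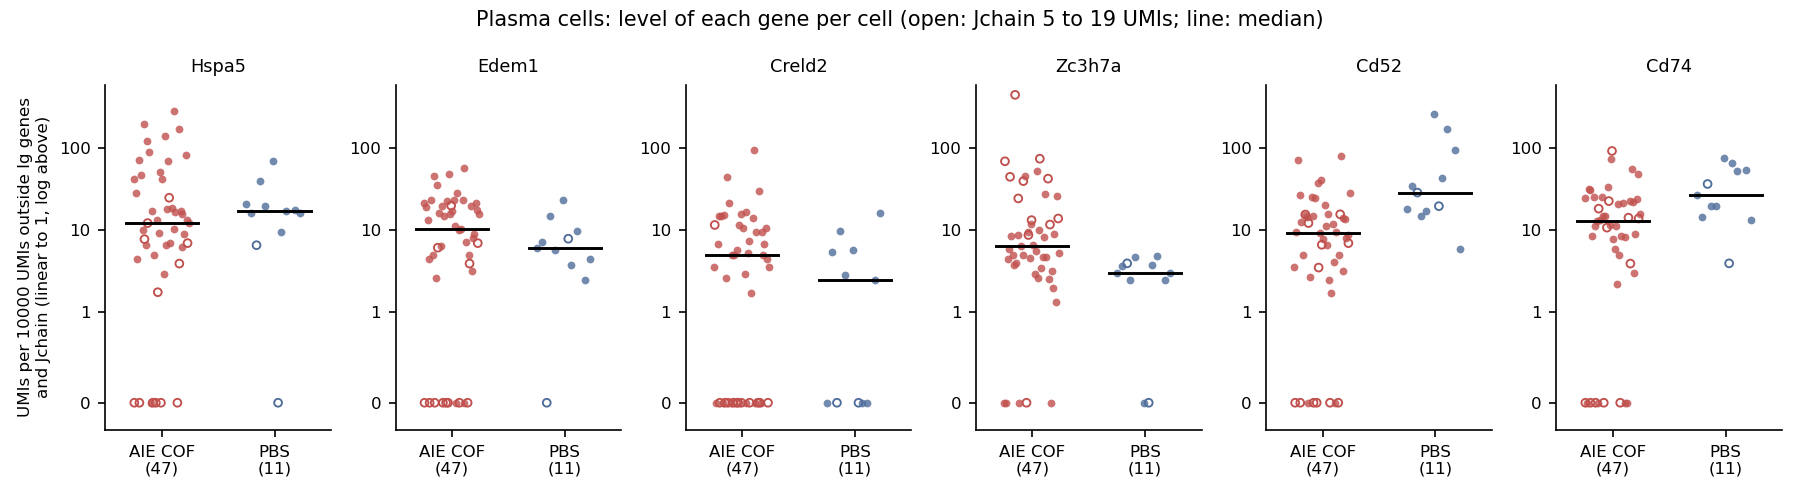
Level of 6 genes in each plasma cell (UMIs per 10000 UMIs outside immunoglobulin genes and Jchain, linear to 1 and logarithmic above), 47 AIE COF and 11 PBS cells. Each point is a cell, open points have 5 to 19 Jchain UMIs and lines are medians; for Cd52, 43 of 47 AIE COF points lie below the PBS median, and for Zc3h7a 29 lie above the highest PBS point.

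Zc3h7a, a zinc finger gene, had the most UMIs among the genes that were highest in AIE COF plasma cells, at 235 in AIE COF and 19 in PBS plasma cells (ratio 3.89, 2.44 to 6.58). Per 10000 UMIs outside immunoglobulin genes and Jchain it stood at 0 to 448 with a median of 6.33 in AIE COF and at 0 to 4.81 with a median of 3.01 in PBS plasma cells, and 29 of 47 AIE COF cells lay above the highest PBS cell. The Jchain-low cells carried much of it: 101 of the AIE COF UMIs lay in those 12 cells, 58 of them in 1 cell. With at least 20 Jchain UMIs required, its level on the scale per 1000000 such UMIs was 858 in AIE COF and 351 in PBS plasma cells, and its log2 ratio 1.29, against 1.96 over all cells. In B cells the log2 ratio was -0.45 and in T cells -0.08.

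Other genes among the 10 highest rested on few PBS UMIs. Rgcc, a cell cycle regulator, had 48 UMIs in AIE COF and 2 in PBS plasma cells, a ratio of 7.55 with an interval of 1.98 to 64.1. The ratio of Rgcc was 0.990 (0.750 to 1.32) in B cells and 1.91 (1.76 to 2.07) in T cells. Col3a1, a collagen gene of fibroblasts, had 58 in AIE COF and 4 in PBS plasma cells (ratio 4.56, 1.69 to 17.3). Of the AIE COF UMIs of Col3a1, 29 lay in the 12 Jchain-low cells, and fibroblast markers as a whole had 123 UMIs in AIE COF and 12 in PBS plasma cells, at 0 to 67.6 per 10000 in AIE COF cells and 0 to 8.17 in PBS cells, with Fap and Lum at 0. The part of RNA from other cells in these ratios was not tested. The remaining genes were S100a4, Spag9, St8sia4, Gtf2a1, Sh3glb1, Ifitm3 and Btg1, at ratios from 2.96 to 4.09.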

How the data were processed

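The authors deposited 2 tables of raw UMI counts, 1 per library of 4T1 tumour cells, over 32285 genes; the lowest barcode total was 500 UMIs. Per the labels' protocols, libraries were made with the MobiCube 3' kit of MobiDrop. Per the submitters' processing notes, STAR and mm10 were used; the sources used here name no versions, counting program or strand setting. Barcodes of 200 or more genes and up to 20% mitochondrial UMIs were kept, and doublets were kept; removing the highest Scrublet scores (scanpy 1.11.5) was an alternative. Counts were summed per library with Python 3.11.15 and scaled to the UMIs outside immunoglobulin genes and Jchain; levels compared between cell classes use all UMIs. Shares have exact Clopper-Pearson and ratios exact conditional binomial 95% intervals (SciPy 1.17.1). Genes needed 50 UMIs over both libraries. The ratio code was tested on simulated data.

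Named genes are those of the rule, the constant genes, the 10 highest and 10 lowest ratios (a UMI in 20% of the cells of the higher library, no cell above 30% of its UMIs), up to 5 genes of a list with the most UMIs, and the 20 leading genes. Others are named as list members, markers or sequence matches. The rule, its members and the lists were chosen with earlier results of these data known. The planned kappa or lambda assignment was dropped because Igkc is listed at 0. Gene positions come from GENCODE M21.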

Additional observations from a re-analysis of the deposited data

How the results depend on the processing

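With 1 library per group, no replicate could be left out. No paired analysis was possible because the groups share fewer than 2 replicate numbers. Over the settings run, 105 summary values and 304 single-gene values stayed within set limits, and 23 summary values and 10 single-gene values did not. The limit was the counting interval for shares and single genes, and 1.5 times for counts of genes. For list medians it was a shift no larger than the distance from middle to end of the summed ratio's log2 counting interval. The ratio of shares was 1.64 against plasma and B cells together and 2.13 against plasma, B and T cells together. Both of these settings were chosen after seeing the data. The median log2 ratio of translocon genes was -0.028 at 20 Jchain UMIs or more, -0.18 with equal weight for each cell and -0.015 without cells that have a Pax5 UMI, a setting chosen after seeing the data. For ER chaperones it was 0.53 without the highest Scrublet scores, 0.076 with equal weight and 0.18 without Pax5 cells; for degradation and unfolded protein response genes -0.12 with equal weight and -0.025 without Pax5 cells. For ER to Golgi genes it was 0.0020 without the highest Scrublet scores, -0.37 with equal weight, 0.082 at 20 UMIs or more per gene and 0.22 with no minimum. For MHC class II it was -0.67 at 20 Jchain UMIs and -0.64 without Pax5 cells, and for cell cycle genes -1.12 without the highest Scrublet scores and -0.43 with equal weight. Genes at least 1.5-fold higher and lower numbered 438 and 307 at 20 UMIs, 1341 and 2343 with no minimum, and 45 and 15 at 2-fold. With no minimum the median of all genes was -0.22. The cause was not tested in any of these. Of the plasma cells, 11 of 47 AIE COF and 1 of 11 PBS cells had Scrublet scores among those removed. Of all retained cells, 8.57% were removed in the AIE COF library and 7.64% in the PBS library. At 11 PBS cells, an isotype absent there could still hold up to 28.5% of cells.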

Other observations

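Of 3 measured interferon-induced genes, 2 were at least 1.5-fold higher in AIE COF plasma cells, against 14.9% of all genes, and the list of 20 summed to 332 UMIs, against 48 in PBS plasma cells (ratio 2.18, 1.604 to 3.01). Bst2, which encodes tetherin, had 101 UMIs in AIE COF and 16 in PBS plasma cells (ratio 1.99, 1.17 to 3.61), and Ifitm3, a membrane protein that hinders virus entry, had 47 in AIE COF and 5 in PBS plasma cells (ratio 2.96, 1.18 to 9.53). The other measured gene, Zbp1, a sensor of nucleic acids, had 43 UMIs in AIE COF and 14 in PBS plasma cells (ratio 0.966, 0.518 to 1.91). Isg15, chosen after its values were seen, had 35 UMIs in AIE COF plasma cells, 18 of them in 1 cell, and 0 in PBS plasma cells. Its ratio was 3.67 against a floor of 3 counts over the PBS cells, and its counting interval began at 2.83. In B cells Bst2 stood at a ratio of 0.958 and in T cells at 0.865.

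Immediate early genes, which tissue dissociation is known to induce, were mixed. Fos had 538 UMIs in AIE COF and 249 in PBS plasma cells (ratio 0.680, 0.584 to 0.793), while 4 of 11 measured genes of the list were at least 1.5-fold higher, against 14.9% of all genes, and the list's summed ratio was 0.882 with a median log2 ratio of 0.23. Respiratory chain genes were near 1, with a median log2 ratio of 0.01. Of 23 measured, 0 were higher and 1 was lower, against 14.9% and 13.6% of all genes.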
